A study of Saccharomyces cerevisiae with 27 samples.

Results

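The cyclin genes and SIC1 of Saccharomyces cerevisiae were followed across 4 RNA strains as a reading of cell-cycle stage. They are 9 genes of cyclins that bind the kinase Cdc28, together with the gene of a Cdc28 inhibitor, chosen by gene name. All 10 were found among the 5297 genes of the RNA table and the 5298 genes of the DRIP table. By chromosome they are CLN3 (YAL040C, I), CLB3 (YDL155W, IV), CLB1 (YGR108W, VII), CLB6 (YGR109C, VII), SIC1 (YLR079W, XII), CLB4 (YLR210W, XII), CLN1 (YMR199W, XIII), CLN2 (YPL256C, XVI), CLB2 (YPR119W, XVI) and CLB5 (YPR120C, XVI).

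The series addresses the sirtuins Hst3 and Hst4, histone deacetylases of lysine 56 of histone H3, and the nuclear exosome subunit Rrp6. All strains are anchor-away strains, in which rapamycin draws an FRB-tagged protein out of the nucleus. The mutants are hst34 (hst4-delta HST3-FRB), rrp6 (RRP6-FRB) and hst34rrp6 (hst4-delta HST3-FRB RRP6-FRB), and the control is WT anchor away. Every culture, WT included, grew in YPD at 30 °C and had rapamycin for 3 h, so rapamycin itself is not contrasted. RNA-seq covered these 4 strains, DRIP-seq covered hst34 with RNase H, hst34, WT with RNase H and WT, and Break-seq covered hst34 and WT, with 2 libraries per group. The cultures were asynchronous, at mid-log phase, so the share of cells in a stage and the RNA per cell of a gene cannot be told apart.

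In budding yeast a single kinase, Cdc28, is steered through the cycle by successive cyclins. Cln3 opens G1 by relieving Whi5 repression of the transcription factors SBF and MBF, which drive CLN1, CLN2, CLB5 and CLB6. Cln1 and Cln2 then start budding and mark Sic1 for destruction through the SCF ligase, which frees Clb5 and Clb6 to fire replication origins. Clb3 and Clb4 act in spindle assembly, Clb1 and Clb2 drive mitosis, and the anaphase-promoting complex (APC) together with Sic1 ends Clb activity at mitotic exit.

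The deposited RNA signal is normalised to a Schizosaccharomyces pombe spike-in and to length, so levels are per kb and can be compared between genes. Reads in genes ran from 5487526 to 10183415 per library. HST4, the deleted gene, lay between 0 and 9.694 in the 4 libraries of hst34 and hst34rrp6 and between 91.53 and 100.3 in those of rrp6 and WT. Summed markers of a cells ran from 24750 to 47210 over 5 of 6 listed genes measured, against 170.6 to 289.6 for 4 of 4 alpha-cell genes. Among the a-cell genes MFA1 and MFA2 had the highest signal, and BAR1 fell as low as 0. Among the alpha-cell genes SAG1 had the highest signal, and MF(ALPHA)1 and MF(ALPHA)2 reached 0 in some libraries. The 2 libraries of a strain differed by an offset shared by most genes. All 10 genes were lower in hst34 library 2 than in library 1, where the median of all genes differed by -0.35 (log2), and all 10 were higher in library 2 of rrp6 and of hst34rrp6, where the median of all genes differed by 0.14 and 0.18. Results are therefore given on the spike-in scale as deposited and, where it matters, with each library centred on its own median.

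CLN3 had the highest RNA level of the 10 genes in every library, and CLB6 had the lowest. The mean over 8 libraries put CLN3 at percentile 81 of all genes, CLN2 at 67.5, SIC1 at 63.7, CLB2 at 60.7, CLB1 at 54.4, CLB3 at 49.4 and CLN1 at 48.6. CLB4 lay at percentile 18.8, CLB5 at 16.6 and CLB6 at 4.55. Between neighbours in this order the library ranges overlapped from CLN2 down to CLN1 and again between CLB4 and CLB5, whereas CLN3 and CLB6 overlapped no other member.

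**Figure D1:**
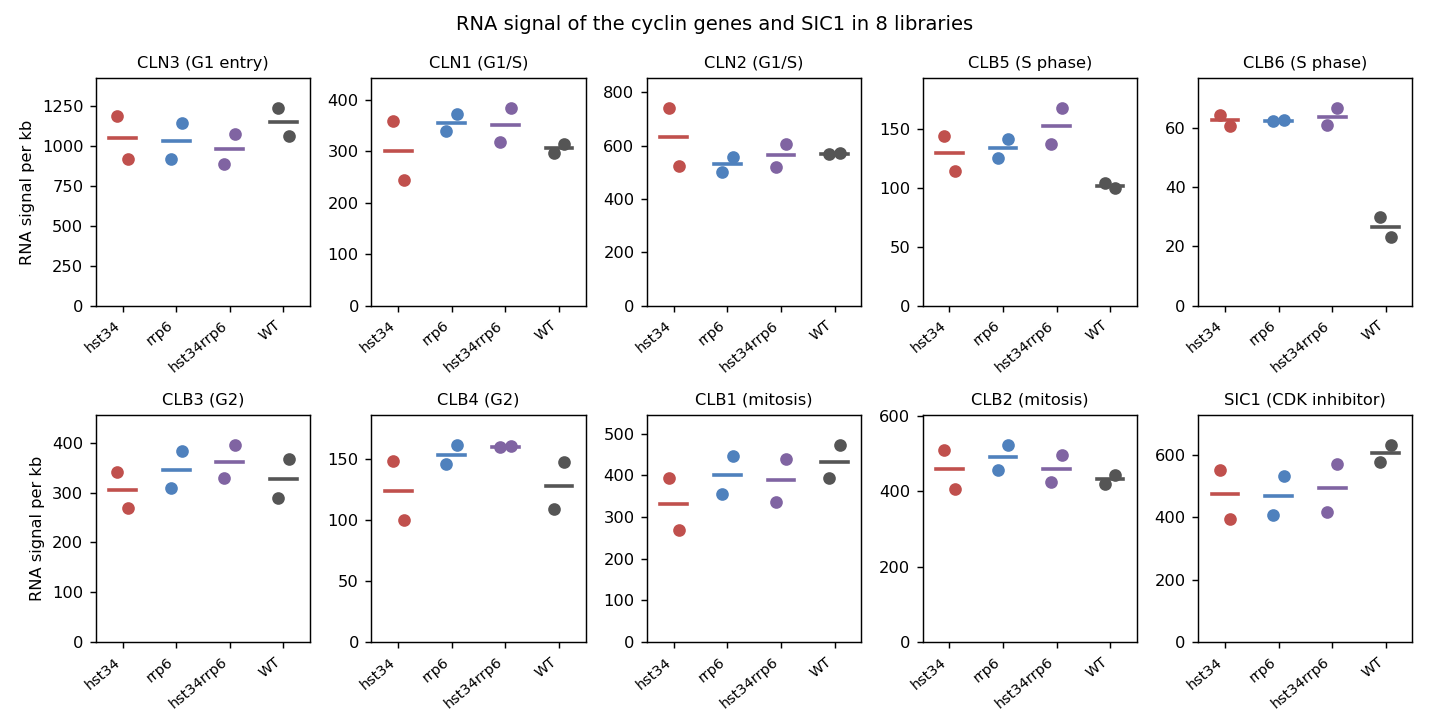
RNA signal per kb (y axis, linear from 0, own scale per gene) of each gene in hst34, rrp6, hst34rrp6 and WT. Points are single libraries and bars are the mean of 2; the 6 mutant libraries lie above both WT libraries for CLB5 and CLB6 and below both for SIC1.

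CLB6, one of the pair of S phase cyclins, was the only one of the 10 whose RNA passed the test on the values as deposited, and it was higher in each mutant. It had 64.14 and 60.75 in hst34, with 62.18 and 62.56 in rrp6 and with 60.86 and 66.65 in hst34rrp6, against 29.97 and 23.13 in WT. The 6 mutant libraries sat close together, and none overlapped WT. The ratio of mean signals was 2.35 for hst34, 2.35 for rrp6 and 2.4 for hst34rrp6. On the log2(signal + 58.8) scale, which understates the change of so low a gene, the fold changes were 0.51 ± 0.14 for hst34, 0.51 ± 0.14 for rrp6 and 0.52 ± 0.14 for hst34rrp6 (standard error, n = 2 libraries per group). The Benjamini-Hochberg adjusted p from limma over all genes was 0.0145 for hst34, 0.00303 for rrp6 and 0.00174 for hst34rrp6. All 3 comparisons share the WT libraries, so they are not independent.

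These CLB6 values rest on few reads. There were 62 and 98 reads in hst34, with 74 and 65 in rrp6 and with 64 and 52 in hst34rrp6, against 41 and 18 in WT. The 18 reads of WT library 2 give 13.71 to 36.56 per kb and the 41 reads of WT library 1 give 21.51 to 40.66 (95% exact Poisson intervals, counting error only), and the lowest bound in a mutant library is 46.87. With a pseudocount 10 times smaller the fold change of CLB6 was 1.08, 1.08 and 1.11 in hst34, rrp6 and hst34rrp6, and with edgeR on the recovered whole reads it was 1.28, 1.18 and 1.09. The call ended in all 3 mutants without WT library 2 (adjusted p = 0.533, 0.151 and 0.0913 for hst34, rrp6 and hst34rrp6). It ended in hst34 also without WT library 1 (0.113) and with only the compared groups in the fit (0.0903), and in rrp6 without either rrp6 library (0.0781 and 0.0763).

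In the background of these counts, 2% of 5294 genes passed in hst34 against WT, 11.2% in rrp6 against WT and 15.9% in hst34rrp6 against WT. One of 10 genes passed in each. The median fold change of the 10 genes was -0.04, 0.11 and 0.10 in hst34, rrp6 and hst34rrp6, against -0.08, 0.00 and 0.11 over all genes.

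CLB5, the partner of CLB6 in S phase, had 144.7 and 114.6 in hst34, with 125.5 and 142.1 in rrp6 and with 138.0 and 168.2 in hst34rrp6, against 104.2 and 99.9 in WT. All 6 mutant libraries were above both WT libraries. The fold changes of 0.22 ± 0.18, 0.26 ± 0.18 and 0.39 ± 0.18 for hst34, rrp6 and hst34rrp6 did not pass (limma adjusted p = 0.895, 0.439 and 0.121). Over the 8 centred libraries, which share strains, CLB5 and CLB6 had r = 0.96, the highest of any 2 of the 10 genes, given as a description. Under edgeR with TMM normalisation CLB5 passed in hst34rrp6 against WT, with a fold change of 0.45 and an adjusted p of 0.0225, where 42.1% of all genes were called.

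SIC1, the inhibitor of Clb-bound Cdc28, lay on the other side of WT. It had 552.7 and 393.6 in hst34, with 406.6 and 530.8 in rrp6 and with 416.0 and 570.8 in hst34rrp6, against 576.6 and 632.0 in WT. Every mutant library was below both WT libraries, the nearest being hst34rrp6 library 2. On the spike-in scale SIC1 did not pass (-0.33 ± 0.22, -0.34 ± 0.22 and -0.28 ± 0.22 for hst34, rrp6 and hst34rrp6, with limma adjusted p = 0.824, 0.401 and 0.443). With centred libraries it fell in rrp6 by 0.36 ± 0.10 (adjusted p = 0.0146) and in hst34rrp6 by 0.41 ± 0.10 (0.00679), and in hst34 the value was -0.23 ± 0.10 (0.165). Centring calls many more genes, 33.3% in rrp6 against WT and 38.7% in hst34rrp6 against WT, as against 7.52% in hst34 against WT.

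The G1 cyclins did not pass on the spike-in scale. CLN3 had 1185 and 917.4 in hst34, with 919.5 and 1142 in rrp6 and with 884.5 and 1077 in hst34rrp6, against 1237 and 1062 in WT, with overlap between WT and each mutant. CLN1 had 358.9 and 243.6 in hst34, with 338.4 and 372.2 in rrp6 and with 317.9 and 383.8 in hst34rrp6, against 296.4 and 313.9 in WT. CLN2 had 740.9 and 523.5 in hst34, with 502.6 and 557.3 in rrp6 and with 520.7 and 606.9 in hst34rrp6, against 566.8 and 573.6 in WT. Both rrp6 and both hst34rrp6 libraries were above WT for CLN1, and both rrp6 libraries were below WT for CLN2. Their fold changes lay between -0.22 and 0.19 in the 3 comparisons. With centred libraries CLN3 fell in hst34rrp6 against WT by 0.35 ± 0.11 (limma adjusted p = 0.0316).

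The cyclins of G2 and mitosis did not pass on that scale either. CLB3 had 342.1 and 268.2 in hst34, with 308.6 and 382.9 in rrp6 and with 328.5 and 395.8 in hst34rrp6, against 288.9 and 366.6 in WT, so all groups overlapped. CLB4 had 147.8 and 99.5 in hst34, with 145.4 and 161.4 in rrp6 and with 159.4 and 160.3 in hst34rrp6, against 108.9 and 147.1 in WT, and only hst34rrp6 lay wholly above WT. Both genes act in the assembly of the spindle. CLB1 had 394.5 and 269.8 in hst34, with 355.3 and 446.3 in rrp6 and with 336.2 and 439.3 in hst34rrp6, against 392.5 and 473.2 in WT, and each mutant overlapped WT. CLB2, the main mitotic cyclin, had 508.9 and 407.6 in hst34, with 456.4 and 523.9 in rrp6 and with 424.2 and 496.2 in hst34rrp6, against 418.6 and 444.9 in WT, and only rrp6 lay wholly above WT. The fold changes of these 4 genes lay between -0.34 and 0.24, and with centred libraries CLB1 fell in hst34rrp6 against WT by 0.27 ± 0.09 (limma adjusted p = 0.032).

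**Figure D2:**
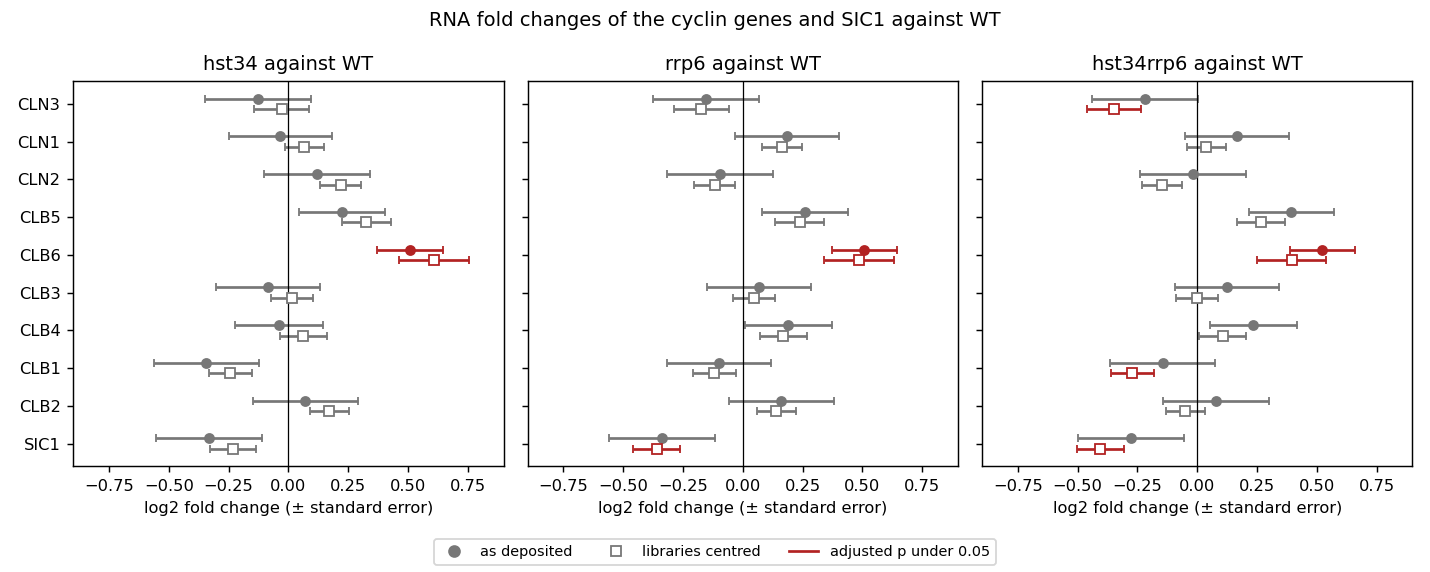
Log2 fold changes against WT (x axis, bars are standard errors) of the 10 genes, on the values as deposited (circles) and with each library centred on its median (squares); red marks an adjusted p under 0.05. CLB6 is red to the right of 0 in all 3 panels on both scales, while SIC1 in rrp6 and SIC1, CLN3 and CLB1 in hst34rrp6 are red to the left of 0 only when centred.

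Groups that do not overlap are common in these data. Members wholly above WT were CLB5 and CLB6 in hst34, where 7.05% of all genes were so, CLN1, CLB2, CLB5 and CLB6 in rrp6 (28.5%), and CLN1, CLB4, CLB5 and CLB6 in hst34rrp6 (39.3%). Members wholly below WT were SIC1 in hst34 (18.2%), CLN2 and SIC1 in rrp6 (28.4%), and SIC1 in hst34rrp6 (19.9%).

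With the loss of Hst3 and Hst4 added to that of Rrp6, none of the 10 genes passed. In hst34rrp6 against rrp6 each member overlapped between the strains (31.8% of all genes lay wholly higher and 7.23% wholly lower), the fold changes lay between -0.08 and 0.14, and no member passed (limma adjusted p = 1 for all 10, with 1.04% of all genes called and 0 members at an unadjusted p under 0.05). In hst34rrp6 against hst34 no member passed either (16.9% of all genes called, 0 members at an unadjusted p under 0.05), and CLB4 alone did not overlap, being higher in hst34rrp6 (36.9% of all genes lay so, and 11.5% wholly lower). With centred libraries, CLN2 fell in hst34rrp6 against hst34 by 0.36 ± 0.08 (adjusted p = 0.00569) and CLN3 fell by 0.32 ± 0.11 (0.0447), where 39.1% of all genes were called. The fold changes of hst34rrp6 against hst34, and the interaction below, stand against a median of 0.17 over all genes on the spike-in scale.

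CLB6 in hst34rrp6 differed by 0.02 ± 0.14 from each single mutant (log2), and the interaction term, which asks whether the changes of both single mutants add up, was -0.49 ± 0.19. It did not pass in limma (adjusted p = 0.402, with 1.19% of all genes called) or in DESeq2 (0.0732, with 3.15% called), and it passed in edgeR with TMM (-1.36, adjusted p = 0.0382, with 3.1% called). No other member passed an interaction test in any of the settings tried.

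Ratios of 2 genes within a library do not depend on the scaling between libraries. Of 11 pairs, 5 had both libraries of every mutant above both WT libraries, 1 had them below, and 5 were mixed. The pairs were chosen with earlier results known, and the share of other gene pairs so placed was not computed. Each of the 5 pairs above WT holds CLB5, CLB6 or SIC1, which by themselves lay apart from WT, so the count is no separate result. The ratio of CLB6 to CLB1, S phase to mitosis on 1 chromosome, was 0.163 and 0.225 in hst34, with 0.175 and 0.140 in rrp6 and with 0.181 and 0.152 in hst34rrp6, against 0.0764 and 0.0489 in WT. That of CLB5 to CLB2 was 0.284 and 0.281 in hst34, with 0.275 and 0.271 in rrp6 and with 0.325 and 0.339 in hst34rrp6, against 0.249 and 0.225 in WT. Each of the 6 mutant libraries exceeded both WT libraries in both ratios, and hst34rrp6 was the highest strain in the second. CLB6 over CLB5, the S phase cyclins against each other, also lay above WT in each mutant.

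The ratio of CLN2 to SIC1, the G1 cyclin over the inhibitor it helps to remove, was 1.340 and 1.330 in hst34, with 1.236 and 1.050 in rrp6 and with 1.252 and 1.063 in hst34rrp6, against 0.983 and 0.908 in WT. That of CLB5 to SIC1 was 0.262 and 0.291 in hst34, with 0.309 and 0.268 in rrp6 and with 0.332 and 0.295 in hst34rrp6, against 0.181 and 0.158 in WT. Mutants and WT did not overlap here either, and SIC1 stands in both ratios. CLN1 over CLN2 separated the strains in another way, with 0.484 and 0.465 in hst34, with 0.673 and 0.668 in rrp6 and with 0.611 and 0.632 in hst34rrp6, against 0.523 and 0.547 in WT. It was thus below WT in hst34 and above WT in both strains that lack nuclear Rrp6. CLB1 over CLB2 was 0.775 and 0.662 in hst34, with 0.779 and 0.852 in rrp6 and with 0.792 and 0.885 in hst34rrp6, against 0.938 and 1.063 in WT. Every mutant library lay below WT in this ratio.

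CLN2 over CLB2, G1 to mitosis, was 1.456 and 1.284 in hst34, with 1.101 and 1.064 in rrp6 and with 1.227 and 1.223 in hst34rrp6, against 1.354 and 1.289 in WT. It was thus below WT in both strains that lack nuclear Rrp6 and lay on either side of WT in hst34. CLB3 over CLB4 was likewise below WT in rrp6 and hst34rrp6 and overlapped WT in hst34. CLB1 over SIC1 was above WT in rrp6 and hst34rrp6 and overlapped WT in hst34, whereas CLN2 over CLN3 was above WT in hst34 and hst34rrp6 and overlapped WT in rrp6. These ratios are descriptions and were not tested.

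**Figure D3:**
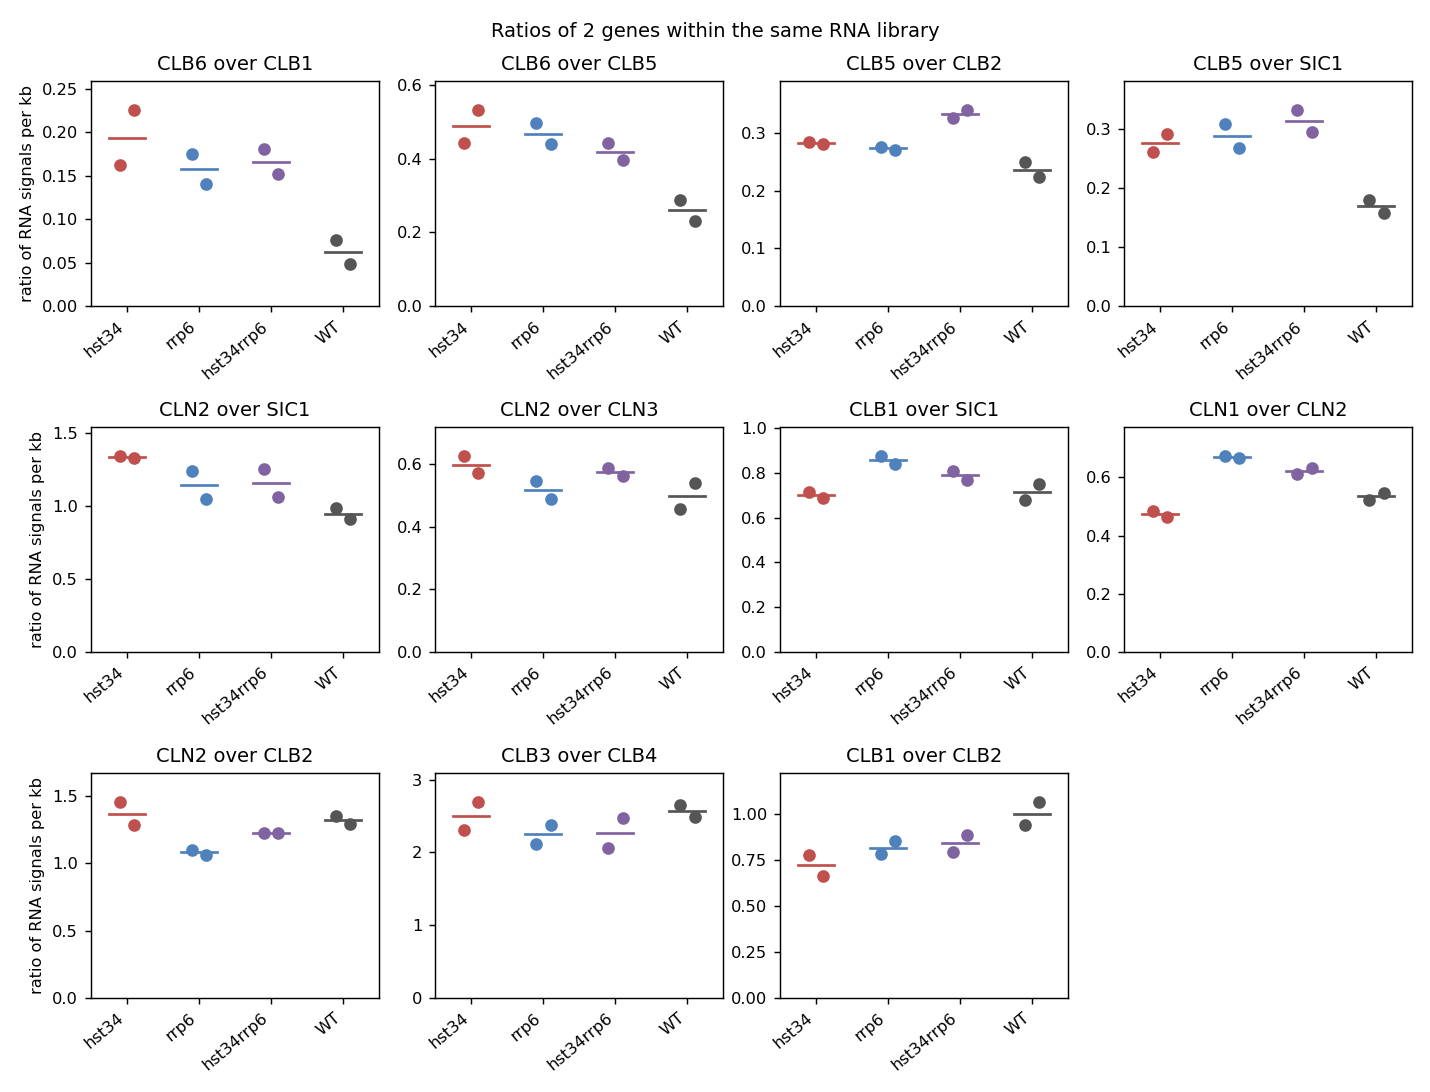
Ratio of the RNA signals per kb of 2 genes in the same library (y axis from 0) for hst34, rrp6, hst34rrp6 and WT, with single libraries as points and means of 2 as bars. All 11 pairs are shown: the 6 mutant libraries lie above both WT libraries in the first 5 panels and below both in the last (CLB1 over CLB2), and the other 5 panels are mixed.

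Several members lie close to a neighbouring gene or overlap it on at least 1 side, and an effect of this on their counts was not tested. In the deposited intervals (build sacCer3), CLB1 at 703411 to 705187 and CLB6 at 705215 to 706583 on chromosome VII face each other with 28 bp between them. CLB2 at 771259 to 773531 and CLB5 at 773719 to 775303 on chromosome XVI face each other with 188 bp between them. The interval of CLN3 overlaps that of convergent CDC24 by 140 bp, CLB4 that of ATG38 by 106 bp and CLN2 that of YPL257W by 20 bp. Strand use in counting was not given in the sources used here; signal of an overlapping or antisense neighbour therefore cannot be told apart, and the low levels of CLB6 and CLB5 beside the higher CLB1 and CLB2 were not tested for read-through.

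Other cell-cycle genes were counted by stage, and each set of 3 list values is for hst34, rrp6 and hst34rrp6 against WT in that order. Over all 5294 genes on the spike-in scale, 35, 240 and 541 rose and 71, 351 and 302 fell. Among the SBF and MBF subunits and regulators, 0 of 9 rose in hst34, 1 in rrp6 and 2 in hst34rrp6. WHI5, the repressor that Cln3 relieves, rose by 0.44 ± 0.16 in rrp6 (limma adjusted p = 0.0424) and 0.91 ± 0.16 in hst34rrp6 (3.15e-07), and STB1, a regulator that binds Swi6, rose by 0.78 ± 0.19 in hst34rrp6 (0.000452). The median fold change of the list was 0.12, 0.31 and 0.40 in hst34, rrp6 and hst34rrp6, beside the all-gene medians given above. Of 32 targets of SBF and MBF, such as RNR1 and POL1, 0 passed in each mutant on the spike-in scale, with medians of 0.14, 0.06 and 0.23. With centred libraries 5 rose and 1 fell in hst34, 3 rose and 3 fell in rrp6, and 5 rose and 3 fell in hst34rrp6, where 7.52%, 33.3% and 38.7% of all genes were called. With both directions counted, calls among the 32 targets were thus more frequent than over all genes in hst34. Such calls were less frequent than over all genes in rrp6 and hst34rrp6. These shares are descriptions with no test.

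Among regulators of Cdc28 itself, 7 of 8 had values, and 0, 2 and 2 rose in hst34, rrp6 and hst34rrp6. CKS1, the small subunit of the kinase, rose by 0.67 ± 0.22 in rrp6 (limma adjusted p = 0.0254) and 0.70 ± 0.22 in hst34rrp6 (0.0142). HSL1, which restrains the inhibitory kinase Swe1, rose by 0.65 ± 0.22 in rrp6 (0.0313) and 1.18 ± 0.22 in hst34rrp6 (2.83e-06). The list medians were 0.04, 0.28 and 0.37. Of 11 genes of the kinase Pho85 and its cyclins, 0, 0 and 2 rose, the 2 being PCL5 (0.64 ± 0.22) and PCL10 (0.52 ± 0.19) in hst34rrp6, with medians of -0.08, 0.14 and 0.31.

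Histone genes are expressed in S phase. Of 9, 0 passed in hst34, 2 fell in rrp6 and 3 fell in hst34rrp6, with medians of -0.27, -0.36 and -0.36. HTA1, a histone H2A gene, fell by 1.11 ± 0.21 in rrp6 (limma adjusted p = 3.71e-06) and by 1.48 ± 0.21 in hst34rrp6 (1.33e-10). With centred libraries 2, 6 and 8 of the 9 fell, where 4.04%, 20.7% and 23.6% of all genes fell. Histone genes come in near-identical pairs, so the split of reads between copies is uncertain.

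At G2/M, 0 of 7 activators passed in any mutant (medians 0.00, 0.09 and 0.18). Of the 18 genes of the CLB2 cluster, 0, 0 and 1 rose, the 1 being BUD4, a bud-site protein, by 0.54 ± 0.20 in hst34rrp6 (limma adjusted p = 0.0433), with medians of -0.03, 0.09 and 0.17. Of 15 APC genes 0, 1 and 5 rose, with medians of 0.00, 0.29 and 0.30; in hst34rrp6 CDC23 had 0.72 ± 0.17, MND2 0.70 ± 0.14 and CDC16 0.69 ± 0.20. The 10 mitotic exit genes and the 6 SCF genes had 0 calls in each mutant, with medians of 0.05, 0.03 and 0.13 and of -0.02, 0.09 and 0.27.

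Of 20 genes expressed at the turn from mitosis to G1, 0 passed in hst34, 3 fell in rrp6 and 7 fell in hst34rrp6, and the medians were -0.25, -0.27 and -0.34. DSE4, a glucanase of daughter-cell separation, fell by 0.89 ± 0.22 in rrp6 and by 1.04 ± 0.22 in hst34rrp6, CTS1, the chitinase that parts the septum, fell by 0.70 ± 0.21 and 0.94 ± 0.21, and DSE2 fell by 0.65 ± 0.22 and 0.91 ± 0.22. With centred libraries 1, 10 and 13 of the 20 fell in hst34, rrp6 and hst34rrp6, beside the shares of all genes just given. In the same setting 1, 2 and 1 of the 20 rose, where 184, 667 and 803 of 5294 genes rose. SIC1 is itself expressed at this turn.

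Many list counts of 0 belong to hst34, where limma calls few genes. There, at an unadjusted p under 0.05, limma found 4 histone genes, 3 genes of the turn to G1, 1 regulator of SBF and MBF, 1 of their targets, 1 APC gene and 0 in the other 6 lists, where 8.33% of all genes had such a p. In hst34, edgeR with TMM called 7 targets of SBF and MBF higher and 1 lower, 2 regulators of SBF and MBF higher, 2 histone genes lower, and 1 gene of the turn to G1 higher and 3 lower, and DESeq2 gave the same counts for these 4 lists. EdgeR with TMM also called 1 gene of the Pho85 list, 1 G2/M activator and 1 gene of the CLB2 cluster higher in hst34. Of these lists DESeq2 called 1 Pho85 gene and 1 gene of the CLB2 cluster higher, and 0 G2/M activators. Both tests called 0 genes of the Cdc28 regulator, APC, mitotic exit and SCF lists in hst34. Over all genes edgeR called 10.8% and DESeq2 8.33% in hst34. Of the targets of SBF and MBF, 2 in rrp6 and 5 in hst34rrp6 had an unadjusted limma p under 0.05, where 21.6% and 27.6% of all genes did. For these targets edgeR with TMM called 5 higher and 2 lower in rrp6 and 10 higher and 2 lower in hst34rrp6, where 36.1% and 42.1% of all genes were called. For the same targets DESeq2 called 3 higher and 3 lower in rrp6 and 5 higher and 2 lower in hst34rrp6, where 30.6% and 35.6% of all genes were called. With both directions counted, the share of targets called did not exceed that of all genes in either strain. By direction, edgeR with TMM called 1076 of 5294 genes higher and 1153 lower in hst34rrp6. In rrp6 it called 868 higher and 1041 lower. In hst34 it called 226 higher and 345 lower. The share of the 32 targets it called higher thus exceeded that of all genes in hst34 and hst34rrp6 but not in rrp6. The share called lower was below that of all genes in each strain. DESeq2 called 804 genes higher in hst34rrp6, a share near to that of the targets. In hst34 DESeq2 called 151 of 5294 genes higher, a share below that of the targets. These shares were not tested.

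**Figure D4:**
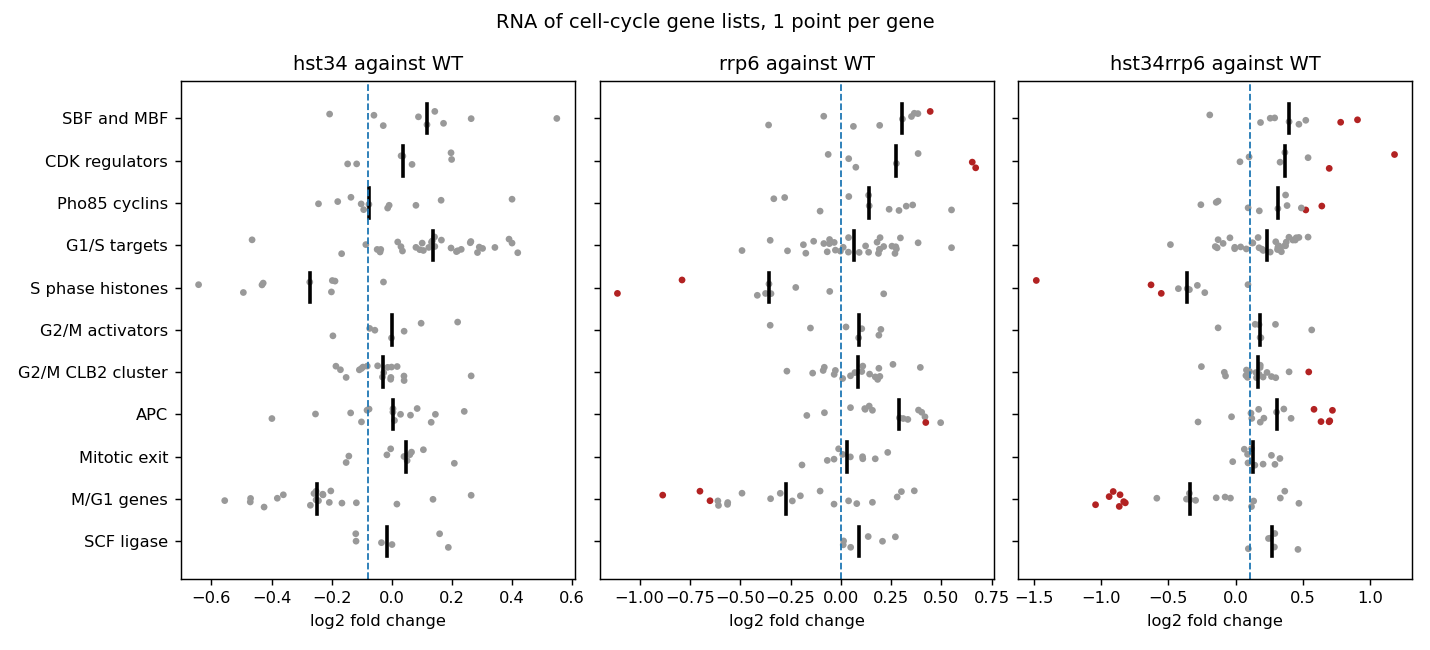
Log2 fold change (x axis, values as deposited) of each gene of 11 cell-cycle lists in hst34, rrp6 and hst34rrp6 against WT; red points have an adjusted p under 0.05, black bars are list medians and the dashed line is the median of all genes. Histone and M/G1 genes carry their red points on the left in rrp6 and hst34rrp6, and G1/S targets carry none.

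For each member the genes of most similar RNA pattern were ranked by Pearson r over 8 centred libraries, among genes above the median level. PEX8 led for both CLB5 (r = 0.97) and CLB6 (0.91), followed for CLB6 by PCL1 (0.88) and PIL1 (0.87) and for CLB5 by RPN4 (0.94) and SIN3 (0.90). For CLN2 they were SLA1 (0.99), SRV2 (0.98) and TOS6 (0.98), for CLN3 ASH1 (0.97), FMP42 (0.96) and DHH1 (0.95), and for SIC1 TOS7 (0.94), YLR257W (0.93) and SPL2 (0.93). The leading gene was CCA1 for CLN1 (0.96), BRE4 for CLB1 (0.93), TIM50 for CLB2 (0.96), SOH1 for CLB3 (0.94) and CKS1 for CLB4 (0.92). With 8 points from 4 strains and so many genes ranked, the genes named were picked for a high r, which is given as a description.

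DRIP-seq pulls down DNA of RNA-DNA hybrids with the S9.6 antibody, and 30 U of RNase H, which cuts the RNA strand of hybrids, was the control. The deposited DRIP signal is not divided by length. Both WT libraries numbered 2 stood apart: they correlated with each other at r = 0.99 over all genes but with WT library 1 and its RNase H partner at 0.75 to 0.80. The hst34 libraries with RNase H also differed from those without, with r of 0.78 to 0.86 between the 2 groups. If the smallest step of a column's values is worth 1 read, WT library 2 held 83303106 reads, against 935412 to 2951246 in the other 7; these DRIP totals are estimates and enter no test. Several members differed widely with this number. CLB2 had 202.4 and 25.1 in WT with RNase H and 199.6 and 23.3 in WT, SIC1 had 47.0 and 2.28 in WT with RNase H and 38.8 and 1.51 in WT, and CLB5 had 284.2 and 607.6 in WT with RNase H and 211.8 and 656.8 in WT.

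Per kb, and by the mean over 8 libraries, DRIP signal placed CLB5 at percentile 83.2 of all genes, CLN3 at 74.8, CLB6 at 58.5, CLN1 at 52.1, CLB1 at 48.1, CLN2 at 38.8, CLB2 at 33.8, CLB3 at 26.1, CLB4 at 19 and SIC1 at 8.76. CLB5, low in RNA, had the highest mean of the 10 in each of the 4 DRIP groups and CLN3 came next in each. In hst34 with RNase H these means were nearly equal, at 186.8 for CLB5, 186.7 for CLN3 and 184.4 for CLB6. In library 1 of that group the order was reversed, with CLB6 at 230.9, CLN3 at 146.7 and CLB5 at 137.5. CLB6 ranked 3 with RNase H in both strains but 8 in untreated hst34 and 5 in untreated WT, so it was among the 3 highest in the groups with RNase H alone. SIC1, behind only CLN3 and CLN2 in RNA, was the lowest in every DRIP group but hst34 with RNase H, where it ranked 8. These orders rest on the mean of libraries that differ as described.

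No gene passed in any DRIP comparison in the limma fit of all 8 libraries, so 0% of genes and 0 members were called. At an unadjusted p under 0.05 there were 140 genes in hst34 against WT, 541 in hst34 with RNase H against hst34, 212 in hst34 with RNase H against WT with RNase H, 92 in the interaction, and 0 in WT with RNase H against WT. Of the members, 2 were among the 541 (CLN3 and CLB6) and 0 among the others. In hst34 against WT, CLN1, CLN2, CLN3, CLB1 and CLB5 lay wholly below WT, where 23.7% of all genes did, and CLB3 lay wholly above (10.7%). Without the 2 WT libraries numbered 2, the value of CLB3 was 0.04, against 1.16 ± 0.94 with them, and that of CLB5 was -0.17, against -0.96 ± 0.55.

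On the deposited scale, RNase H did not lower the DRIP signal of most members. The summed DRIP signal of a library lay between 902159 and 1134347, so these values are near to shares of a library. A loss common to all genes after RNase H need not show on that scale. In hst34, 8 of 10 members were higher with RNase H than without in each of the 2 pairs of same-numbered libraries, where 70.5% and 68.8% of all genes were higher. In WT, 8 of 10 were higher in pair 1 and 6 of 10 in pair 2, where 69.7% and 49.3% of all genes were higher. CLB4 and CLB1 were lower with RNase H in both hst34 pairs.

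CLB6 had a DRIP signal of 315.8 and 188.8 in hst34 with RNase H against 54.8 and 110.1 in hst34, and 165.3 and 214.9 in WT with RNase H against 96.6 and 175.9 in WT. Its log2 difference in hst34 was 2.29 in pair 1, the highest of the 10 genes there, but 0.715 in pair 2, behind CLN3 (1.03), CLB5 (0.909) and SIC1 (0.824). CLN3 had 349.7 and 540.3 in hst34 with RNase H against 234.3 and 258.7 in hst34, and 381.1 and 404.7 in WT with RNase H against 282.9 and 367.4 in WT. SIC1 had 77.4 and 64.2 in hst34 with RNase H against 25.6 and 30.8 in hst34. In hst34 these 3 genes as well as CLN1, CLN2, CLB3 and CLB5 did not overlap between treatments, where 49.5% of all genes lay wholly higher with RNase H. In WT with RNase H against WT only CLN3 lay wholly higher (5.32% of all genes) and no member lay wholly lower (2.23%). In hst34 with RNase H against WT with RNase H, CLB3 and SIC1 lay wholly higher (22.6%) and CLB1 wholly lower (10.6%).

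In the fit of all 8 DRIP libraries CLB6 had a fold change of 1.50 ± 0.47 in hst34 with RNase H against hst34 and CLN3 of 0.79 ± 0.28, and neither passed (limma adjusted p = 0.452 for both). The median of all genes was 0.34. With only the 4 hst34 libraries in the fit, CLB6 (adjusted p = 0.000272) and CLN3 (0.0182) passed, where 15.9% of all genes rose. No member passed the interaction of strain and RNase H in any of the settings tried, so a difference between strains was not shown.

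**Figure D5:**
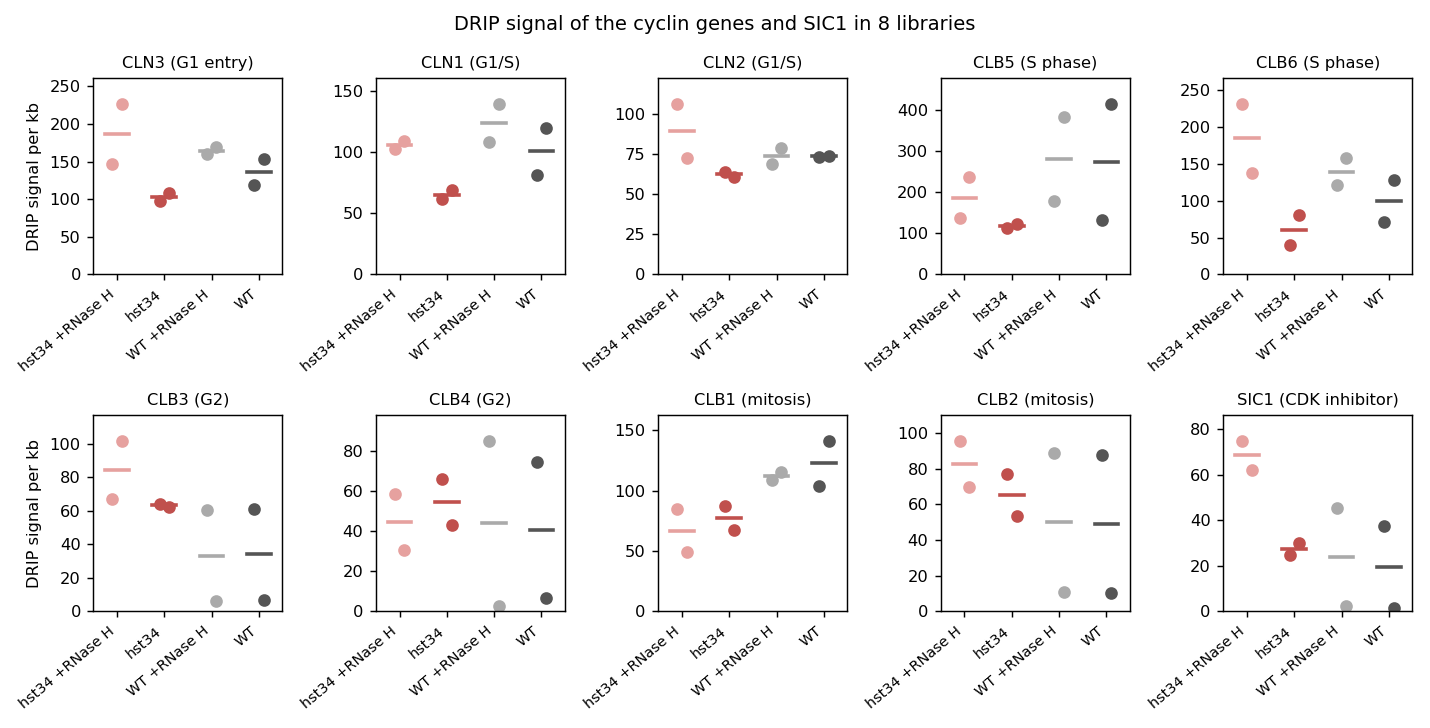
DRIP signal per kb (y axis, linear from 0, own scale per gene) in hst34 with RNase H, hst34, WT with RNase H and WT, with single libraries as points (library 1 left, library 2 right) and means of 2 as bars. The hst34 libraries with RNase H lie above those without for CLB6, CLN3 and SIC1, and the WT points are far apart for CLB2, CLB3, CLB4, CLB5 and SIC1.

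Break-seq maps DNA ends, and the authors deposited 1 list of 239 peaks for hst34 against WT. Of the 10 members, 2 overlapped a peak by at least 1 base, against 542 of 5298 genes (10.2%). The peak at CLB3 on chromosome IV, from 176751 to 179500, had the authors' signal of 366 and 376 in hst34 and 234 and 248 in WT. The peak at CLB4 on chromosome XII, from 561501 to 567000, had 787 and 814 in hst34 and 460 and 496 in WT. Each peak runs past the interval of its member, which ends at 178201 for CLB3 and at 563495 for CLB4. The peak signal is therefore not that of the member alone. Both peaks were higher in both hst34 libraries; the list was called for hst34 against WT, so no test was made. CLB3 and CLB4 are the pair of spindle cyclins, and their RNA in hst34 overlapped WT.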

How the data were processed

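The members, gene lists and gene pairs were chosen with earlier results of these data known. The submitters' processing notes name TopHat2, Bowtie2, SAMtools, bedtools and HTSeq 0.9.1 and the build sacCer3; filters and strand use were not given in the sources used here. Deposited tables hold a signal, per the file headers scaled to the S. pombe spike-in (added 1:6) and per kb for RNA; the DRIP and Break-seq signal is the authors' scaled read number per gene or peak. Dividing RNA values, times length, by the value of 1 read gave whole reads within 0.01 for 100% of values. DRIP values were whole multiples of a step to the same tolerance, but that the step is 1 read was not settled for most columns, so no count test was run on them.

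Tests used limma 3.58.1 (R 4.3.3, trend) on log2(signal + pseudocount), the pseudocount being the 5th percentile of all values above 0 (58.8 for RNA, 12.5 for DRIP), with the 8 libraries of each table fitted together, genes above 0 in at least 2 libraries, two-sided p and Benjamini-Hochberg adjustment at 0.05. The code of the fit was run on simulated data with known changes. Those data lacked the offsets between libraries of a strain and the wide spread of the WT DRIP libraries. They therefore do not show how the fit performs on the real data. In RNA the spread is pooled over genes of like level. Alternatives were centring, other pseudocounts and filters, edgeR 4.0.16 and DESeq2 1.42.0 on recovered RNA reads, replicate blocks and left-out libraries.

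Symbols came from the RefSeq gene table (assembly R64), which matched 5286 of 5298 genes. Besides the members, all lists of the report were named by up to 3 genes per direction with the largest change among those that passed. The labels do not say whether a group's libraries are separate cultures; p-values then measure only how these samples vary, and that variation may be technical. The labels do not say that a library number marks a shared source, and the fits of the report use no block. The 7 NET-seq samples are not analysed here.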

Additional observations from a re-analysis of the deposited data

How the results depend on the processing

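Of 792 RNA and 680 DRIP values of single genes recomputed under the alternatives, 110 and 63 changed sign, and none of these was called before or after. The number of members called changed as follows. In hst34 against WT, 1 became 0 with only the compared groups in the fit or with the lowest 25% of genes left out, which removes CLB6 itself. In rrp6 against WT, 1 became 2 with centring, edgeR with TMM or DESeq2, and 0 with the lowest 25% left out. In hst34rrp6 against WT, 1 became 4 with centring, 5 with edgeR with TMM, 3 with DESeq2 and 0 with the lowest 25% left out. In hst34rrp6 against hst34, 0 became 2 with centring or DESeq2 and 1 with edgeR with TMM, and in the interaction 0 became 1 with edgeR with TMM. In DRIP hst34 with RNase H against hst34, 0 became 5 with the replicate block within strain, 2 with that block and centring, 2 with only the compared groups, 2 without both WT libraries numbered 2, and 1 without them and with centring; the blocks within strain and the omission of those 2 libraries were chosen after seeing the data. Leaving out 1 library gave 0 to 1 members called in each RNA comparison with WT and in hst34rrp6 against hst34 (CLB4, without hst34 library 1), and 0 in the others. The numbers of all genes called ranged from 29 to 571 in hst34 against WT (29 with only the compared groups, 571 with edgeR and TMM, 106 as given), from 268 to 1909 in rrp6 against WT (591) and from 373 to 2229 in hst34rrp6 against WT (843). For hst34rrp6 against rrp6 they ranged from 11 to 227 (55), for hst34rrp6 against hst34 from 254 to 2293 (895) and for the interaction from 16 to 270 (63). In DRIP, where 0 genes were called, the highest numbers came with the replicate block within strain (1760 for hst34 with RNase H against hst34, 234 for the interaction) or without both WT libraries numbered 2 (310 for hst34 with RNase H against WT with RNase H, 7 for WT with RNase H against WT, 6 for hst34 against WT). No label ties the library numbers to a shared source. The differences between libraries 2 and 1 correlated between groups at -0.20 to 0.11 in RNA; in DRIP they correlated at 0.94 between the WT groups but 0.12 between the hst34 groups, below the 0.22 to 0.27 between strains. In RNA the replicate block left 1 member called in each comparison with WT and 0 elsewhere. In DRIP a replicate block across strains left 0 members called in hst34 with RNase H against hst34, whereas the block within strain called CLB6, CLN3, SIC1, CLN1 and CLB5 higher, where 33.2% of all genes were called. The cause of these changes was not tested. Count tests on DRIP reads and the search for promoter motifs were not run. With 2 libraries a group and 18 to 98 reads at CLB6, depth limits that gene most; the other members had at least 90 RNA reads per library.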
